A study of Mus musculus with 4 samples.

Results

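Collagen chain genes encode the alpha chains that wind around each other into the triple helix of collagen, the main protein of bone, cartilage and connective tissue matrix. The family was chosen by gene name: every gene of the deposited count table whose symbol is Col, a type number, the letter a and a chain number was taken, which gave 44 members of 22417 genes. It was singled out with the difference between the genotypes in these same counts already known, so everything said of that difference is a description of the libraries and not independent support for it. The counts are ribosome footprints, short stretches of mRNA protected by ribosomes, from mouse bone marrow derived monocytes (macrophage-lineage cells grown from marrow) that had received RANKL, the cytokine that drives them towards bone-resorbing osteoclasts, for 3 days. The groups were a Nat10 conditional knockout (cKO; Nat10 acetylates cytidine in RNA) and wild type (WT), with 2 libraries each. RANKL was given to both groups. The labels name neither the Cre driver nor the part of Nat10 removed, nor whether replicates came from separate mice, so the spread between libraries may be technical.

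Fibrillar collagens (types I, II, III, V and XI among others) assemble into the rope-like fibrils that give bone and cartilage their strength, and are made mainly by osteoblasts, fibroblasts and chondrocytes. Type IV collagen forms the sheet of basement membranes, type VI the beaded microfibrils around cells, and FACIT collagens (fibril-associated collagens with interrupted triple helices) sit on the surface of fibrils. Osteoclasts are known for degrading collagen, with cathepsin K and matrix metalloproteinases, rather than for depositing it.

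The library totals lay between 906937 and 3014620 counts, and both extremes were WT. The deepest library, WT replicate 2, held counts for 9402 genes while each of the others held counts for 10508 to 10798, and 53.2% of all genes tested differed by over 1.5-fold between the WT libraries, against 34.0% between the cKO libraries. Nat10 itself had 101 and 72 counts in cKO against 77 and 148 in WT, with overlapping groups (log2 fold change -0.18, SE 0.41), so its counts do not check the labels, and every direction given here is by label. The defining macrophage markers were present in all libraries: none of the 10 listed was at 0, and together they held 41140 to 73510 CPM (CPM stands for counts scaled to a library total of 1e6 after TMM scaling). In these bulk libraries, fewer cells of a type and less translated RNA per cell cannot be told apart.

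Of the 44 collagen chain genes, 33 had at least 1 count in the 4 libraries and 11 had none. At least 10 counts were found for 20 members, and 13 had 1 to 9, which add up to 41 of the family's 25192 counts. The 11 without a count were Col4a6, Col7a1 (anchoring fibrils of the skin), Col8a2, Col9a3, Col13a1, Col17a1, Col20a1, Col22a1, Col23a1, Col25a1 and Col28a1. They include all 4 transmembrane collagens (types XIII, XVII, XXIII and XXV). With 6870251 counts in all, a count of 0 allows a level of up to 0.437 CPM (3 counts), which covers counting error only. Members with a count numbered 23 and 26 in cKO, against 28 and 24 in WT.

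Positions are those of the deposited table, on GRCm39. The 44 genes lay on 15 chromosomes, and 8 neighbouring pairs lay within 200 kb of each other. Of these pairs 3 were head to head, all of type IV: Col4a1 and Col4a2 on chromosome 8, Col4a4 and Col4a3 on chromosome 1, and Col4a6 and Col4a5 on the X chromosome. Col4a1 (minus strand, ending at 11362826) and Col4a2 (plus strand, starting at 11362805) overlapped by 22 bases. Col4a4 and Col4a3 were 71 bases apart and Col4a6 and Col4a5 1308 bases. Col3a1 and Col5a2 lay tail to tail on chromosome 1 with 24614 bases between them, and Col6a2 and Col6a1 on the same strand of chromosome 10 with 85161 bases between them.

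Upstream sequences are shown for 3 of the fibrillar chains with the lower counts in cKO described below, and for the start shared by the type IV pair, because these are members whose counts moved together or whose genes touch. They were taken from RefSeq promoter windows on GRCm38.p6, in which 35 of the 44 members were matched, with 38 windows. Only the 250 bases before the annotated start are given, 5′ to 3′ on the gene's own strand. Capitals mark CCAAT (or ATTGG on the other strand), the letters TATAAA (or, on the other strand, TTTATA) and the letters GGGCGG (on the other strand CCGCCC). No marked motif overlaps another in the upstream runs. The short overlap of starts is printed without marks, although it holds the letters GGGCGG.
Col1a2, chr6:4505368-4505617, plus strand: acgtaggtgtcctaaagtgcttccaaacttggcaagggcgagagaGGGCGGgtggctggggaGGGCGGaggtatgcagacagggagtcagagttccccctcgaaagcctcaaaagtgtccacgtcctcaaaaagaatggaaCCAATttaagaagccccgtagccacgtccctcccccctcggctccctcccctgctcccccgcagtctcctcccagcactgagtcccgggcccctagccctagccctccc
Col3a1, chr1:45311288-45311537, plus strand: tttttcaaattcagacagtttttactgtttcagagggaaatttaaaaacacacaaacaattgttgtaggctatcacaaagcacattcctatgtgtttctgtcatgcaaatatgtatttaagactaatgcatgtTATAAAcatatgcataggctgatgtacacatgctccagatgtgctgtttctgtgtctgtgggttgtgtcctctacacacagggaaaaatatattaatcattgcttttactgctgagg
Col5a1, chr2:27886175-27886424, plus strand: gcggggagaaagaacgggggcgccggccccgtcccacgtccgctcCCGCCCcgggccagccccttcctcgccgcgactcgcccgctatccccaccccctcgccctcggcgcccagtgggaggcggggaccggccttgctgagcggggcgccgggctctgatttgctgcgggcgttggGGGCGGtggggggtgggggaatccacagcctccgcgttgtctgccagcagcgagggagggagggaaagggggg
Col4a1 and Col4a2, overlap of both starts, chr8:11312805-11312826, plus strand: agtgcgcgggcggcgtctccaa

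The 3 upstream windows did not share a motif. Col1a2 held CCAAT 109 bases before its start and GGGCGG at 205 and 188 bases. Col3a1 held TATAAA at 117 bases and neither of the others, and Col5a1 held GGGCGG letters at 205 and 73 bases. Over the family, 13 of 38 windows held CCAAT on either strand (34.2%, against 33.8% of all 32851 windows of the same length), 5 held TATAAA (13.2% against 12.4%) and 22 held GGGCGG (57.9% against 32.7%). These are letters in a window, and no binding was measured. The overlap of the Col4a1 and Col4a2 starts was 22 bases on GRCm38.p6 as well.

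Differences were fitted over all genes with enough counts (7953 genes, 16 of them collagen chains) by edgeR, and a gene is called where its p-value adjusted over all 7953 is under 0.05. Of the 16 collagen chains, 8 were called lower in cKO, none was called higher and 8 were not called. Over all genes tested, 0.754% were called lower and 0.641% higher. The 8 called were Col1a1, Col1a2, Col2a1, Col3a1, Col5a1, Col5a2, Col6a2 and Col12a1, 6 of them fibrillar. The median log2 fold change (cKO minus WT throughout) was -2.13 over the 16, and -0.01 over all genes tested. Both cKO libraries lay below both WT libraries for 14 of the 16 (22.6% of all genes tested), both lay above for Col19a1 (22.7% of all genes tested), and the groups overlapped for Col8a1. The other 28 members did not pass the filter on low counts, so these shares do not speak for the family as a whole. Of the called members, Col2a1 (0 and 1 counts in cKO) and Col6a2 (9 and 6) passed that filter only through WT, where they were high. Their entry into the number called lower and into the median was thus tied to their direction. Because the contrast that brought the family to notice is the one fitted, nothing is read from these counts beyond the sizes.

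**Figure D1:**
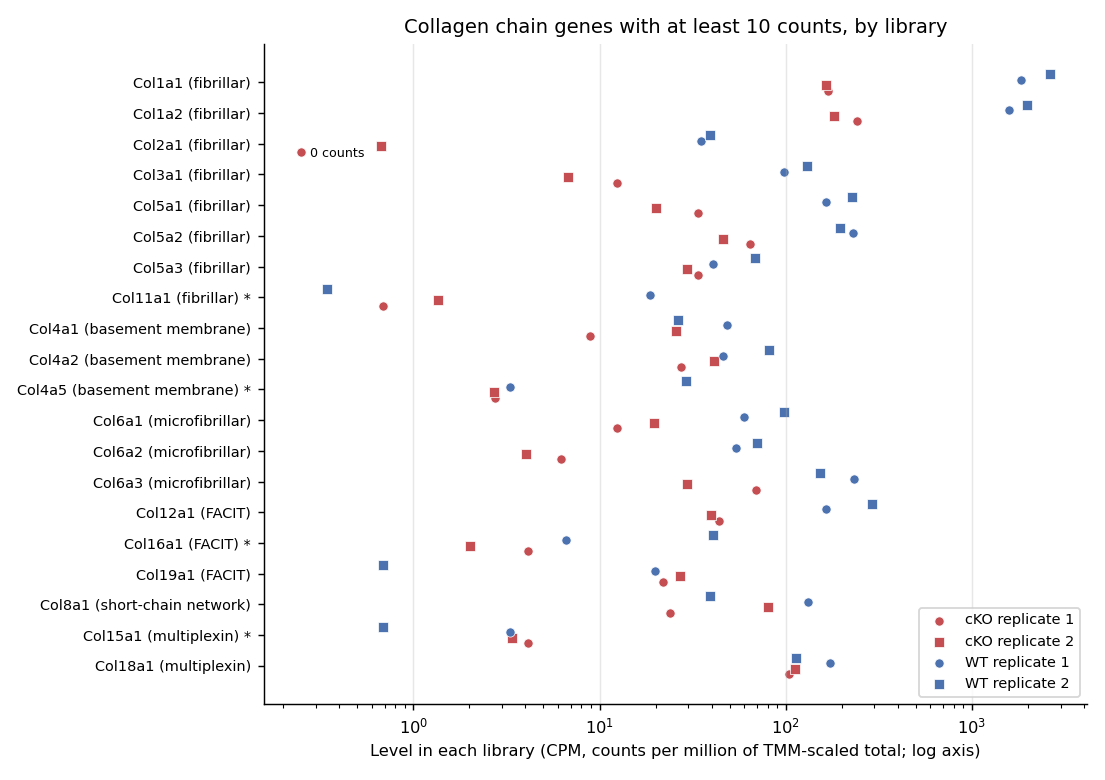
Level of each collagen chain gene with at least 10 counts in the 4 libraries (x axis, CPM on a log axis; circles are replicate 1, squares replicate 2, red cKO, blue WT; an asterisk marks the 4 genes not tested, and the point labelled 0 counts is placed at an arbitrary position). The red points of Col1a1 sit at 169 and 164 CPM and the blue points at 1838 and 2632 CPM, while those of Col18a1 lie between 104 and 173 CPM.

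The calls depended on single libraries of both groups. Fits without a cKO replicate lost calls, as given below for Col2a1, Col5a2 and Col6a2. Without WT replicate 2, 11 collagen chains were called lower (2.55% of all genes tested in that fit), the added ones being Col6a1, Col6a3 and Col8a1. Without WT replicate 1, 14 were called lower (12.1% of all genes tested) and Col19a1 was called higher. The 6 added as lower there were Col6a1, Col6a3, Col5a3, Col4a2, Col4a5 and Col16a1, of which the last pair had not entered the 4-library fit.

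Fibrillar chains made up most of the collagen counts. Col1a1 (ENSMUSG00000001506, chromosome 11, 94827050 to 94843868, plus strand) encodes the alpha1 chain of type I collagen, the bulk protein of bone matrix, and had 246 and 244 counts in cKO and 1667 and 7675 in WT. These are 169 and 164 CPM against 1838 and 2632 CPM. The cKO libraries were nearly equal and the WT libraries lay far above both, so that the means were 167 ± 3.00 CPM and 2235 ± 561 CPM (SD, n = 2 each). The fitted difference was 13.4-fold (log2 -3.75, SE 0.20), and it moved only between -3.95 and -3.45 on the log2 scale when single libraries were left out.

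Col1a2 (ENSMUSG00000029661, chromosome 6, 4504814 to 4541544, plus strand) encodes the alpha2 chain that joins alpha1 chains in the type I molecule. It had 352 and 270 counts in cKO and 1443 and 5764 in WT, which are 241 and 182 CPM against 1591 and 1977 CPM. The groups were well apart, with a fitted difference of 8.43-fold (log2 -3.08, SE 0.19).

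Col3a1 (ENSMUSG00000026043, chromosome 1, 45350698 to 45388866, plus strand), the chain of type III collagen of soft connective tissue, had 18 and 10 counts in cKO and 89 and 382 in WT. The levels were 12.3 and 6.74 CPM against 98.2 and 131 CPM. The highest cKO library was thus well under the lowest WT library, and the log2 fold change was -3.58 (SE 0.46).

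Type V collagen is a minor component that lies inside type I fibrils and sets their diameter. Col5a1 (alpha1 chain) stood at 33.6 and 20.2 CPM in cKO, against 165 and 227 CPM in WT, from 49, 30, 150 and 662 counts (log2 -2.87, SE 0.36). Col5a2 (alpha2 chain) stood at 64.5 and 45.8 CPM in cKO, against 229 and 196 CPM in WT, from 94, 68, 208 and 572 counts (log2 -1.94, SE 0.29), and it was not called without cKO replicate 2. Both chains were lower in each cKO library than in either WT library. Col5a3 (alpha3 chain) had a smaller fitted difference of 1.75-fold, at 33.6 and 29.7 CPM against 40.8 and 68.6 CPM, also with both cKO libraries below both WT libraries. It was not called, and its log2 fold change of -0.81 had a 95% interval from -1.84 to 0.23, which does not overlap that of Col5a1 (-3.69 to -2.05) but does overlap that of Col5a2 (-2.61 to -1.28).

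Col2a1 (ENSMUSG00000022483, chromosome 15, 97873483 to 97902576, minus strand) encodes the type II collagen of cartilage. It had 0 and 1 counts in cKO, against 32 and 115 in WT, and the WT libraries were close to each other at 35.3 and 39.4 CPM. By summed counts it was 113 times higher in WT, with a 95% counting interval from 19.99 to 4498, so its size is hardly bounded above. It was not called without cKO replicate 1, and without cKO replicate 2, which held its only cKO count, no ratio is bounded. Of the other cartilage markers, Acan, Matn1 and Hapln1 had no count in any library. Sox9, the transcription factor gene of chondrocytes, had 3 counts, all in WT replicate 1, and Comp had 3, all in cKO.

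The remaining fibrillar chains were scarce. Col11a1, a chain of the type XI collagen of cartilage, had 1 and 2 counts in cKO and 17 and 1 in WT, so that WT replicate 1 alone was high. Col11a2 had 8 counts, 7 of them in cKO replicate 2. Col27a1 had 5 and 3 counts in cKO and none in WT, and Col24a1 had 3 and 1 counts in WT and none in cKO.

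**Figure D2:**
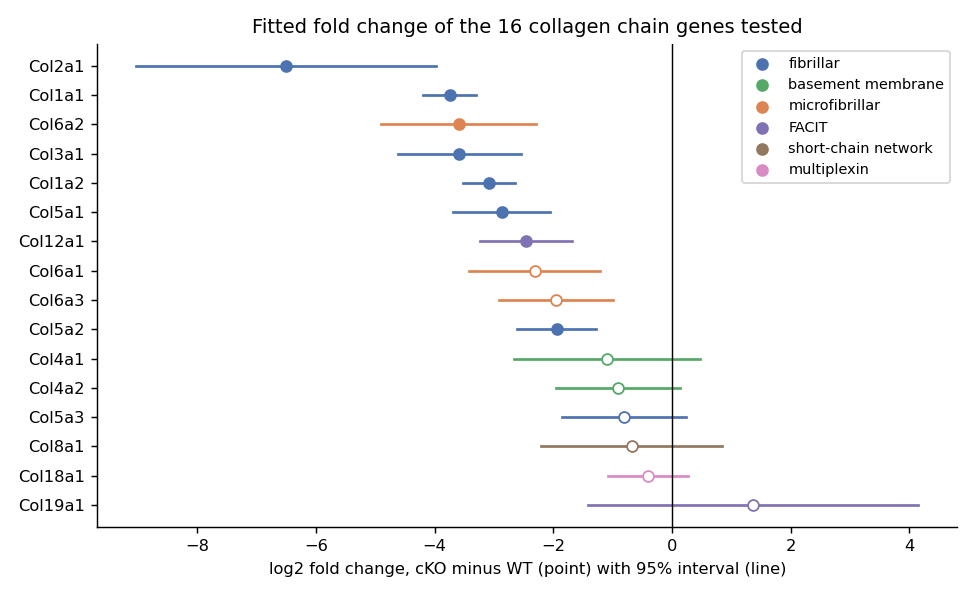
Fitted log2 fold change, cKO minus WT, of the 16 collagen chain genes tested, with 95% intervals (lines) and colour by structural class; filled points are the 8 genes called lower. Fibrillar chains fill the lower end from -6.50 (Col2a1) to -1.94 (Col5a2) together with Col6a2 and Col12a1, Col6a1 and Col6a3 lie in the same range without being called, and Col5a3, Col4a1, Col4a2, Col8a1, Col18a1 and Col19a1 have intervals that cross 0.

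The basement membrane chains Col4a1 and Col4a2 were not called. Col4a1 (ENSMUSG00000031502, chromosome 8, 11248423 to 11362826, minus strand), the alpha1 chain of type IV collagen, had 13 and 38 counts in cKO and 44 and 77 in WT. The levels were 8.92 and 25.6 CPM against 48.5 and 26.4 CPM, so cKO replicate 2 and WT replicate 2 were almost level. Its partner Col4a2 stood at 27.4 and 41.1 CPM in cKO, against 46.3 and 80.9 CPM in WT. The log2 fold changes were -1.10 (SE 0.69) and -0.91 (SE 0.46), with 95% intervals from -2.66 to 0.47 and from -1.95 to 0.13. Col4a1 ran from -2.03 without cKO replicate 2 to -0.51 without cKO replicate 1. Col4a2 was at -1.20 without WT replicate 1 and at -0.42 without WT replicate 2.

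Among the other type IV chains, Col4a5 had 4 and 4 counts in cKO and 3 and 85 in WT, so that WT replicate 2 alone was high at 29.2 CPM. Col4a3 had 2 counts, Col4a4 had 1 and Col4a6 had none. The alpha3 to alpha6 chains, which are known from kidney, eye and ear basement membranes, were thus not in the 4-library fit.

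Type VI collagen, built from alpha1, alpha2 and alpha3 chains, was lower in the cKO libraries for each of the 3 chains. In the main fit only Col6a2 was called. Col6a2 (ENSMUSG00000020241, chromosome 10, 76431596 to 76459464, minus strand) had 9 and 6 counts in cKO and 49 and 204 in WT, which are 6.17 and 4.04 CPM against 54.0 and 70.0 CPM (log2 -3.59, SE 0.57). It was not called without cKO replicate 2, nor with limma-voom, another fitting method. Col6a1 stood at 12.3 and 19.5 CPM in cKO, against 59.6 and 98.1 CPM in WT (log2 -2.31, SE 0.48).

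Col6a3, the longest of the type VI chains, stood at 69.3 and 29.7 CPM in cKO, against 233 and 152 CPM in WT. The libraries of each genotype differed for it by 2.34-fold in cKO and by 1.53-fold in WT, and the log2 fold change was -1.95 (SE 0.42). Without cKO replicate 1 it was -2.67, and without cKO replicate 2 it was -1.45. With all 4 libraries, Col6a1 and Col6a3 were called lower with DESeq2, with limma-voom and with a replicate block. They were also called with no filter on low counts and with at least 1 CPM required in all libraries, but not with other scalings. Without WT replicate 2, Col6a1 and Col6a3 were at log2 -1.88 and -2.22, and without WT replicate 1 at -2.58 and -1.59. The alpha4, alpha5 and alpha6 chains (Col6a4, Col6a5 and Col6a6) had 5, 3 and 2 counts.

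FACIT collagens differed among themselves. Col12a1 (ENSMUSG00000032332, chromosome 9, 79506273 to 79626113, minus strand), a chain found on type I fibrils in dense connective tissue, had 64 and 59 counts in cKO and 150 and 846 in WT. It stood at 43.9 and 39.8 CPM against 165 and 290 CPM, with the cKO libraries close together and both WT libraries well above them (log2 -2.45, SE 0.34). Col16a1 had 6 and 3 counts in cKO and 6 and 119 in WT, and only WT replicate 2, at 40.8 CPM, stood out.

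Col19a1, a chain of a rare FACIT collagen, was the 1 tested member with a positive log2 fold change (1.37, SE 1.22, 95% interval -1.42 to 4.15). It had 32 and 40 counts in cKO and 18 and 2 in WT. At 22.0, 27.0 and 19.9 CPM, both cKO libraries and WT replicate 1 were alike, and only WT replicate 2 was low at 0.686 CPM. The log2 fold change was 0.32 without WT replicate 2 and 5.07 without WT replicate 1. The remaining FACIT chains held at most 1 count each: Col9a1, Col9a2 and Col14a1 had 1, and Col9a3, Col20a1 and Col22a1 had none.

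The chains outside these classes were level or irregular. Col18a1 (ENSMUSG00000001435, chromosome 10, 76888012 to 77002382, minus strand), a basement membrane collagen whose end is cleaved off as endostatin, had 152 and 166 counts in cKO and 157 and 333 in WT. Its levels of 104 and 112 CPM against 173 and 114 CPM put WT replicate 2 beside the cKO libraries, and the log2 fold change was -0.40 (SE 0.30, 95% interval -1.07 to 0.28).

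Col8a1, a short-chain collagen of vessel walls and the cornea, had libraries that differed widely within both genotypes. It had 35 and 119 counts in cKO and 120 and 114 in WT, or 24.0 and 80.2 CPM against 132 and 39.1 CPM. The libraries of each genotype lay 3.34-fold (cKO) and 3.38-fold (WT) apart, which is more than the fitted difference of 1.60-fold. The sign of its log2 fold change turned without WT replicate 1, from -0.68 to 0.45. Col15a1, the relative of Col18a1, had 6, 5, 3 and 2 counts in cKO replicates 1 and 2 and WT replicates 1 and 2, Col26a1 had 4 counts in all and Col10a1, the marker of hypertrophic cartilage, had 1.

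Summed over the family, collagen chains took 0.0886% and 0.0849% of all counts in cKO (exact 95% binomial intervals 0.0838% to 0.0935% and 0.0802% to 0.0897%). In WT they took 0.497% and 0.601% (0.483% to 0.512% and 0.593% to 0.610%). The means were 0.0867% ± 0.00262 and 0.549% ± 0.0735 (SD, n = 2 each), a ratio of 6.33. Even the lowest WT library was 5.61 times the highest cKO library. The intervals cover counting error only, since PCR copies are not independent molecules.

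Most of this gap lay in type I collagen. Col1a1 and Col1a2 together took 0.0407% and 0.0347% of counts in cKO and 0.343% and 0.446% in WT, a ratio of group means of 10.5. The other members took 0.0478% and 0.0502% in cKO, against 0.154% and 0.155% in WT, a ratio of 3.15. Type I chains made up 46.0% and 40.9% of the collagen counts in cKO, against 68.9% and 74.2% in WT. These are shares of counts and not of molecules, since a longer chain gives more footprints.

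**Figure D3:**
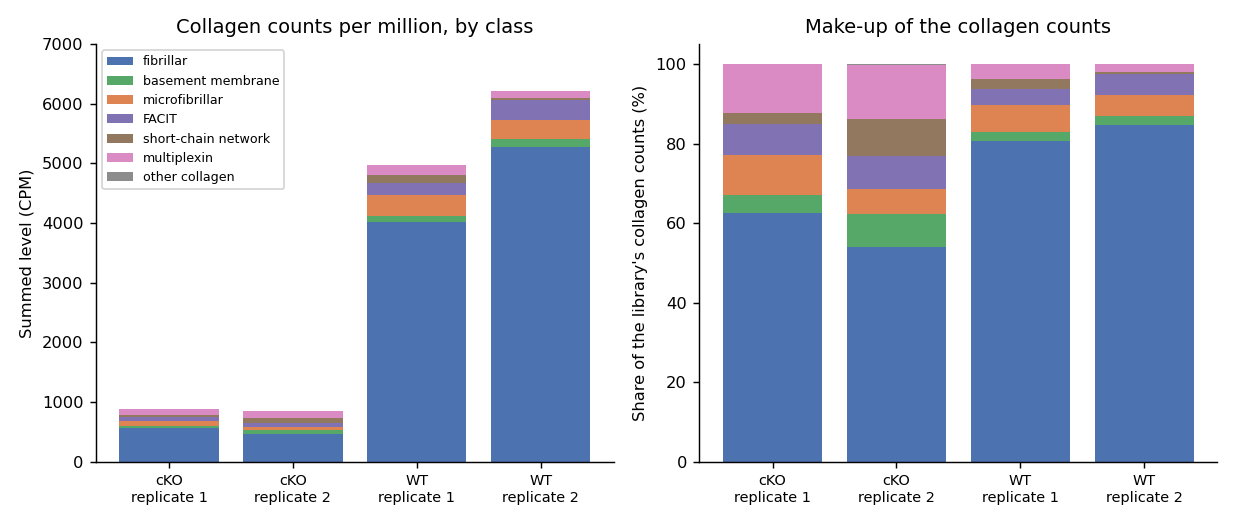
Summed level of the collagen chain genes by structural class in each library (left, CPM) and each class's share of that library's collagen counts (right, %). Fibrillar chains hold 62.6% and 54.0% of collagen counts in cKO and 80.8% and 84.8% in WT, and the multiplexin share, which is nearly all Col18a1, is 12.2% and 13.6% against 3.55% and 1.85%.

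By class, the fibrillar sum was 558 and 458 CPM in cKO, against 4022 and 5272 CPM in WT. The microfibrillar sum was 90.5 and 54.6 CPM against 348.5 and 321 CPM, and the FACIT sum 70.0 and 69.4 CPM against 193 and 332 CPM. The basement membrane sum was 39.1 and 69.4 CPM against 100.4 and 137 CPM. In each of these 4 classes both cKO libraries were under both WT libraries. The groups overlapped for the multiplexin sum (108.4 and 115.3 CPM against 176 and 114.9 CPM) and for the short-chain sum (24.0 and 80.2 CPM against 133 and 39.1 CPM).

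Chains that share a molecule were set against each other within each library, where library size cancels. Col1a1 held 41.1% and 47.5% of the counts of the type I pair in cKO (exact 95% intervals 37.2% to 45.2% and 43.1% to 51.9%), and 53.6% and 57.1% in WT (51.8% to 55.4% and 56.3% to 57.9%). Both WT libraries were above both cKO libraries. The intervals of cKO replicate 2 and WT replicate 1 touched, at 51.9% and 51.8%. Col5a1 held 34.3% and 30.6% of the counts of Col5a1 and Col5a2 in cKO and 41.9% and 53.6% in WT. Col5a3 ran the other way, with 34.3% and 39.3% of the counts of Col5a3 and Col5a2 in cKO against 15.1% and 25.9% in WT.

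For Col4a1 and for Col6a3 the replicates disagreed. Col4a1 held 24.5% and 38.4% of the type IV pair's counts in cKO and 51.2% and 24.6% in WT, so the WT libraries were farther apart than the genotypes. Col6a3 held 84.9% and 60.3% of the counts of Col6a3 and Col6a1 in cKO, and 79.6% and 60.8% in WT, which put replicate 1 of both genotypes on the high side. Col6a1 held 66.7% and 82.9% of the counts of Col6a1 and Col6a2 in cKO, from 18 and 9 counts in replicate 1 and 29 and 6 in replicate 2, and 52.4% and 58.4% in WT. Both cKO libraries were above both WT libraries there, with the interval of cKO replicate 1 (46.0% to 83.5%) covering both WT shares.

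**Figure D4:**
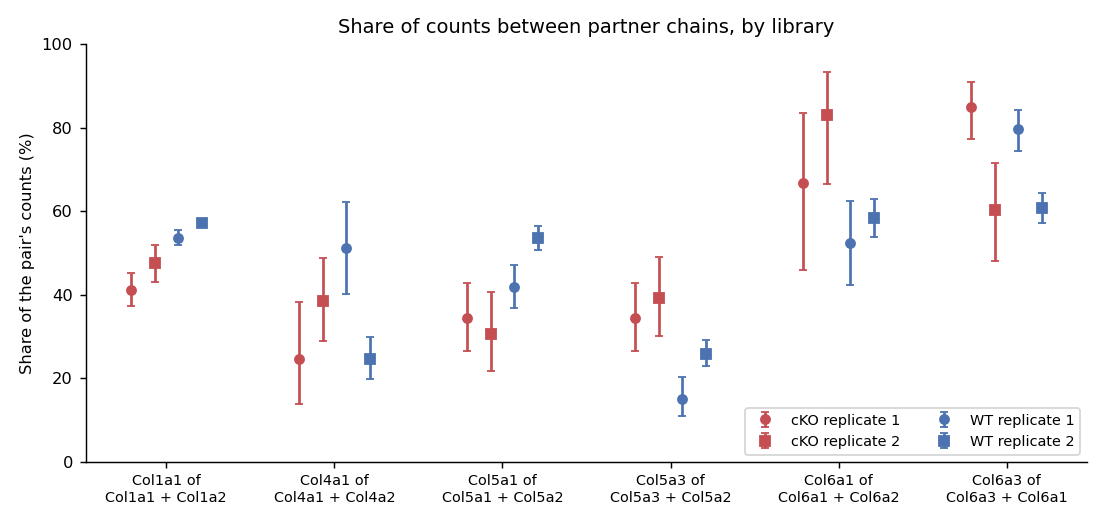
Share of a chain in the summed counts of the chain and its partner (y axis, %) for 6 combinations in each library, with exact 95% binomial intervals as bars; red is cKO, blue WT, circles replicate 1 and squares replicate 2. For Col1a1 the cKO points lie at 41.1% and 47.5% and the WT points at 53.6% and 57.1%, whereas for Col4a1 and Col6a3 the replicates of a genotype are far apart.

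The WT libraries differed from each other for many chains, as they did for many of all genes tested. Of the 16 tested, 10 were higher in WT replicate 2 and 6 in WT replicate 1 (48.8% of all genes tested were higher in WT replicate 2). Between the WT libraries 9 differed by over 1.5-fold, beside 53.2% of all genes tested. In cKO, 7 of the 16 differed by over 1.5-fold, beside 34.0% of all genes tested. Col1a1 was 1.43 times, Col1a2 1.24 times and Col3a1 1.33 times higher in WT replicate 2, each a small step beside its gap to the cKO libraries.

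Collagen chains need a set of helpers to fold, leave the cell and be joined into fibrils, and 34 such genes were listed. Of the 22 tested, 2 were called lower, none higher and 20 were not called, beside 0.754% of all genes tested called lower. Of these 22, 16 had a negative log2 fold change, and the median was -0.56. Serpinh1, the gene of the collagen chaperone HSP47, had 45 and 52 counts in cKO and 248 and 513 in WT (33.0 against 225 CPM on average, log2 -2.76, SE 0.33). Fkbp10, the gene of a prolyl isomerase of the endoplasmic reticulum that acts on collagen, had 10 and 5 against 87 and 120 counts (log2 -3.71, SE 0.67).

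Of the other helpers named, P4hb, Lox and P4ha1 had overlapping groups and Ppib did not. P4hb, the protein disulphide isomerase that is also the beta subunit of prolyl 4-hydroxylase, stood at 2969 ± 484.5 CPM in cKO, against 2742 ± 182.5 CPM in WT (SD over the pair of libraries of each; log2 0.12, SE 0.14). Lox, the gene of the enzyme that crosslinks collagen, stood at 1039 and 1013 CPM on average (log2 0.04, SE 0.15). P4ha1, a catalytic subunit gene of prolyl 4-hydroxylase, stood at 514 and 506 CPM (log2 0.02, SE 0.19). Ppib, a cyclophilin gene, stood at 282 and 403 CPM (log2 -0.51, SE 0.18), with both cKO libraries below both WT libraries, and was not called.

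Of 13 genes for receptors and for collagen uptake or breakdown, 9 were tested and none was called with 4 libraries (4 had a negative log2 fold change, median 0.51). Itgb1, the integrin beta1 chain that pairs with the collagen-binding alpha chains, stood at 1138 CPM in cKO, against 802 CPM in WT on average (log2 0.51, SE 0.15). Itga11, the collagen-binding alpha11 chain known from fibroblasts, had 0 and 3 counts in cKO and 39 and 119 in WT, a ratio of summed counts of 40.5 with a 95% counting interval from 13.6 to 199. Mrc2, an endocytic collagen receptor gene, had 26 and 3 counts in cKO and 25 and 127 in WT, so the cKO libraries disagreed. Lair1, an inhibitory collagen receptor of leukocytes, stood at 95.2 and 52.2 CPM on average (log2 0.87, SE 0.33), Ctsk, the gene of cathepsin K, at 1571 and 2456 CPM (log2 -0.65, SE 0.13) and Pepd, a dipeptidase gene for collagen peptides, at 141 and 150 CPM (log2 -0.09, SE 0.26).

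Markers of other collagen-making cells also differed between the genotypes. Of 26 listed stromal, bone and cartilage markers that are not collagens, 10 had no count, among them the osteoblast genes Bglap, Bglap2, Ibsp and Sp7 and the stromal genes Thy1 and Lepr. Of the 10 tested, 5 were called lower (Fn1, Acta2, Bgn, Sparc and Postn) and none higher, beside 0.754% and 0.641% of all genes tested. Together the 26 listed markers held 752 and 705 CPM in cKO, against 3124 and 3374 CPM in WT. Fn1, the gene of fibronectin, had 545 and 502 counts in cKO and 1324 and 4539 in WT, and Acta2, smooth muscle actin, 104 and 100 against 409 and 1357. Alpl, alkaline phosphatase of osteoblasts, had 0 and 4 counts in cKO and 20 and 1 in WT. Pdgfrb, a pericyte and fibroblast receptor gene, had 34 and 19 counts in cKO against 8 and 5 in WT. Runx2, the osteoblast transcription factor gene, had 13 and 19 counts in cKO against 4 and 0 in WT. Neither of these was called, though their levels were higher in both cKO libraries. The part of such cells in the collagen counts was not tested.

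Endothelial markers summed to more in cKO, with 106 and 142 CPM against 45.2 and 82.7 CPM over 7 genes, of which Tek and Cdh5 had no count. Most of the difference was Kdr, the 1 called, as higher (70.2 against 9.04 CPM on average), beside 0.641% of all genes tested. Vwf was also higher in both cKO libraries (21.45 against 9.48 CPM on average, log2 1.14, SE 0.81) and was not called. Eng (30.3 against 36.5 CPM) and Pecam1 (1.69 against 8.38 CPM) had lower means in cKO. The 10 osteoclast markers, all with counts, summed to 8637 and 8014 CPM in cKO, against 12760 and 13560 CPM in WT, and 1 (Mmp9) was called lower. The 10 macrophage markers summed to 45220 and 41140 CPM against 58280 and 73510 CPM, with 2 called lower (Csf1r and Lyz2). Over all genes tested, 0.754% were called lower.

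**Figure D5:**
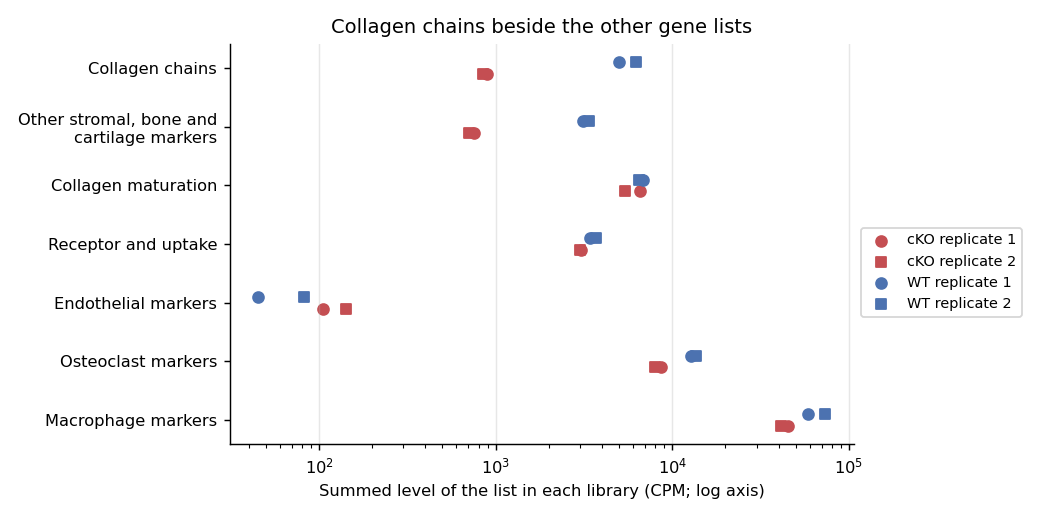
Summed level of the collagen chain genes and of 6 other gene lists in each library (x axis, CPM on a log axis; red cKO, blue WT, circles replicate 1, squares replicate 2). Collagen chains sum to 892 and 847 CPM in cKO, against 4975 and 6216 CPM in WT, and the other stromal markers to 752 and 705 against 3124 and 3374 CPM. Collagen maturation genes sum to 6543 and 5405 against 6804 and 6444 CPM. Much of that sum is P4hb (2969 CPM in cKO and 2742 CPM in WT on average), while 16 of the 22 tested maturation genes had a negative log2 fold change.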

How the data were processed

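Ribosome-protected fragments of 4 mouse libraries (2 Nat10 cKO, 2 WT) were counted per gene by the authors, and the values used are the deposited raw counts, per the file headers. The tools fastp, Bowtie, STAR and HTSeq, and the build GRCm39, come from the submitters' processing notes, which give no version. Strand handling and the rule for multi-mapping reads were not given in the sources used here, so reads shared by overlapping genes cannot be assigned.

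The table's 22417 genes were fitted together with edgeR 4.0.16 (R 4.3.3): filterByExpr (minimum count 10, minimum total 15), TMM scaling, robust quasi-likelihood test with genotype as the only term, Benjamini-Hochberg adjustment, threshold 0.05. The code was tested on simulated data with less spread between libraries than these data have. That test checks the code and does not vouch for the calls. Alternatives used DESeq2 1.42.0, limma 3.58.1, other scalings, other filters, a replicate block and leaving out each library. Same-numbered libraries did not deviate together (correlation -0.02 over genes), and no library was a copy of another. Levels per length were not computed, as no coding length was used here, so partner chains are compared only as shares of counts within a library.

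The members and gene lists were chosen with earlier results of these data known. Named were all members with at least 10 counts, scarcer members by total, and up to 6 genes each of the maturation and receptor lists (called genes by p, then highest mean CPM). Genes of other lists, and the list of collagen-like proteins, were named after their values were seen.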

Additional observations from a re-analysis of the deposited data

How the results depend on the processing

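Over the 16 collagen chains tested and 12 alternatives there were 190 single-gene values: 163 kept direction and side of the threshold, 6 lost the call, 20 gained one and 1 reversed. Fits without a single library leave 1 library in a group, so calls gained there rest on the spread of the other group alone. The reversed value was Col8a1 at 0.45 (log2) without WT replicate 1, and its values without single libraries ran from -1.79 to 0.45. All 8 called chains kept their direction and 5 their call in every alternative that tested them; Col2a1 and Col19a1 were not tested with at least 1 CPM in all libraries. Col2a1 lost the call with limma-voom and without cKO replicate 1. DESeq2 gave Col2a1 a log2 fold change of -6.77 but no adjusted p-value, which is counted among the 6 lost calls. It gave none for Col4a1 and Col19a1 either. Col5a2 lost the call without cKO replicate 2, and Col6a2 with limma-voom and without cKO replicate 2. The number called lower was 8, and 6 to 14 when single libraries were left out. It was 10 with the replicate block, which added Col6a1 and Col6a3 and lost none, and 8 to 10 in the other alternatives. The number called higher was 0, and 1 (Col19a1) with limma-voom. It was 0 to 1 without single libraries, again Col19a1, without WT replicate 1. The median log2 fold change, -2.13, lay between -2.34 and -2.00 without single libraries. The summed collagen share, log2 -2.66 in cKO against WT, was -1.66 without Col1a1 and Col1a2 and -2.79 to -2.52 without single libraries. The cause of these shifts was not tested. The planned ratio of chains per kilobase was not run, and shares of counts took its place. Scarce chains are limited by depth: those under 10 counts allow no comparison.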

Other observations

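Genes for proteins that carry a collagen-like stretch without being collagens were looked at as well. A list of 21 such genes was drawn up after the data had been examined, and 8 of them had no count. It had 9 tested members, none of them called with 4 libraries (4 with a negative log2 fold change, median 0.21). Which cells made these proteins was not tested. Together the 21 genes held 7861 and 7341 CPM in cKO, against 9042 and 13470 CPM in WT. Most of it was Marco, a scavenger receptor gene (6280 CPM in cKO against 10160 CPM in WT on average, log2 -0.70, SE 0.18). C1qa, C1qb and C1qc, the chains of complement C1q, and Emilin2 had higher levels in each cKO library than in any WT library. Marco, Fcna, Emilin1 and Colec12 had lower levels in each cKO library than in any WT library. Over all genes tested, 22.7% lay apart upwards in this way and 22.6% downwards. C1qa stood at 65.7 CPM in cKO against 30.1 CPM in WT on average (log2 1.11, SE 0.41), C1qb at 334 and 209 CPM (log2 0.68, SE 0.20) and C1qc at 85.4 and 39.7 CPM (log2 1.17, SE 0.50), none of them called. Msr1, another scavenger receptor gene, was level at 509 and 443 CPM (log2 0.21, SE 0.17). The cause of these values was not tested.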
